A study of Mus musculus with 2 samples.

Results

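The mitochondrial ribosomal protein genes were read in a control culture and a culture labelled MMP9_KO. Every gene of the deposited table whose symbol begins with Mrpl or Mrps, followed by a number and at most 1 letter, was taken whatever its level. This gave 76 of 26037 genes, 47 named for the large subunit (Mrpl) and 29 for the small subunit (Mrps). The rule used the symbols alone and no measured value, though it was set with earlier results of these data known. The 2 libraries came from bone marrow cells of C57BL/6 mice aged 6 to 8 weeks, expanded in medium with 10% serum and M-CSF (5 ng/ml), and the non-adherent cells grown on for 3 days with 30 ng/ml of M-CSF. Both the control and the MMP9_KO cells then received RANKL, the cytokine that drives macrophages to become osteoclasts, and poly(A)+ RNA was sequenced on an Illumina instrument. By their labels the groups differ in genotype alone, control against MMP9_KO. The headings of the columns add the unexplained letters NCsh and sh. A deletion of Mmp9 and its silencing by a hairpin therefore cannot be told apart from the labels, and knockout is used here as the labels have it. Both headings also hold 3d beside RANKL, without saying whether it counts the days with RANKL. Each group had 1 library, so no difference could be tested between genotypes and none has a replicate check. The labels do not say how many mice or cultures stood behind a library.

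Mitochondria carry their own ribosome, which makes the few proteins encoded by mitochondrial DNA, all of them membrane subunits of the respiratory chain and the ATP synthase. Its RNAs come from mitochondrial DNA, while every protein of it is encoded in the nucleus, made on cytosolic ribosomes and imported. Many of these proteins have a counterpart in bacterial ribosomes, and others were added in the mitochondrial lineage. The large subunit forms peptide bonds and holds the exit tunnel, and the small subunit binds and decodes the mRNA. Osteoclasts are rich in mitochondria, which supply energy for acid secretion and bone resorption.

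The values are normalised read counts, which are reads multiplied by 1 factor per library and not divided by gene length. The control held 20678441 reads and the knockout 17741432. Mmp9 itself had a control level of 139 and a knockout level of 3.87, a 36.0-fold lower value (95% interval 30.8 to 42.3). The labels call the cells primary osteoclasts. All 9 osteoclast markers measured were lower in the knockout library by at least 2-fold, and their summed level was 6685 against 391. Of 7 macrophage markers compared, 5 were higher by at least 1.5-fold and Cd68 was lower by at least 2-fold, with a summed level over 10 markers of 1008 against 1362. Neutrophil, B cell, T and NK cell, stromal, erythroid and mast cell markers summed to at most 1.19 in either library, and the defining markers Elane, Mpo, Cd3e, Col1a1 and Hbb-b1 were at 0 in both. The 2 libraries therefore differ in osteoclast and macrophage transcripts as well as in genotype. The part of this difference in the values that follow was not tested, and fewer cells of a type and less RNA per cell cannot be told apart.

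Most mitochondrial ribosomal protein genes were slightly lower in the knockout library. All 76 passed the filter of a mean level of at least 1 and all were covered by reads, from 76 to 2596 in the control and from 49 to 2260 in the knockout. A pseudocount of 1 was added to both values before the log2 ratio of knockout to control was taken, so that differences of genes with few reads come out too small. It was below 0 for 69 of the 76 genes, beside 62.7% of the 11126 genes compared. The median was -0.48, a 1.40-fold lower level, beside -0.16 over all compared genes. The genes lay in a narrow band from -1.34 to 0.26, with an SD of 0.34 among them beside 0.80 among all compared genes. None was higher by 1.5-fold or more, beside 8.56% of all compared genes. Lower by at least 1.5-fold were 27 of the 76 (35.5%), beside 23.2% of all compared genes. The size of this excess varied with the processing. With both libraries scaled to equal sums the members' share was the lower one, at 9 (11.8%) beside 13.4%. With ratios centred on genes of similar GC content and length the number was 12 (15.8%) beside 14.0%. Lower by at least 2-fold were 4 of the 76 (5.26%), fewer in proportion than the 9.58% of all compared genes. The members thus sat together on the lower side with few large differences. Of the 76, 62 lay below the median of all compared genes and 30 (39.5%) lay below -0.55, the lower quartile of those genes.

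Read as a share of each library, the 76 genes took 0.308% of control reads (exact binomial interval 0.305 to 0.310) and 0.266% of knockout reads (0.263 to 0.268). This share does not depend on the scaling of the table. Their summed normalised read counts were 1582 in the control and 1121, 1.41-fold lower, in the knockout. For single genes, the 95% interval of the fold, from the read numbers, lay wholly on the lower side for 59 genes, beside 50.3% of all compared genes, and wholly on the higher side for 4, beside 26.5%. It held equal levels for 13, beside 23.1%. These intervals cover counting error only and say nothing of the variation between cultures. Whether PCR copies of a molecule were removed before counting is unknown, and if they were counted the intervals are too narrow.

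**Figure D1:**
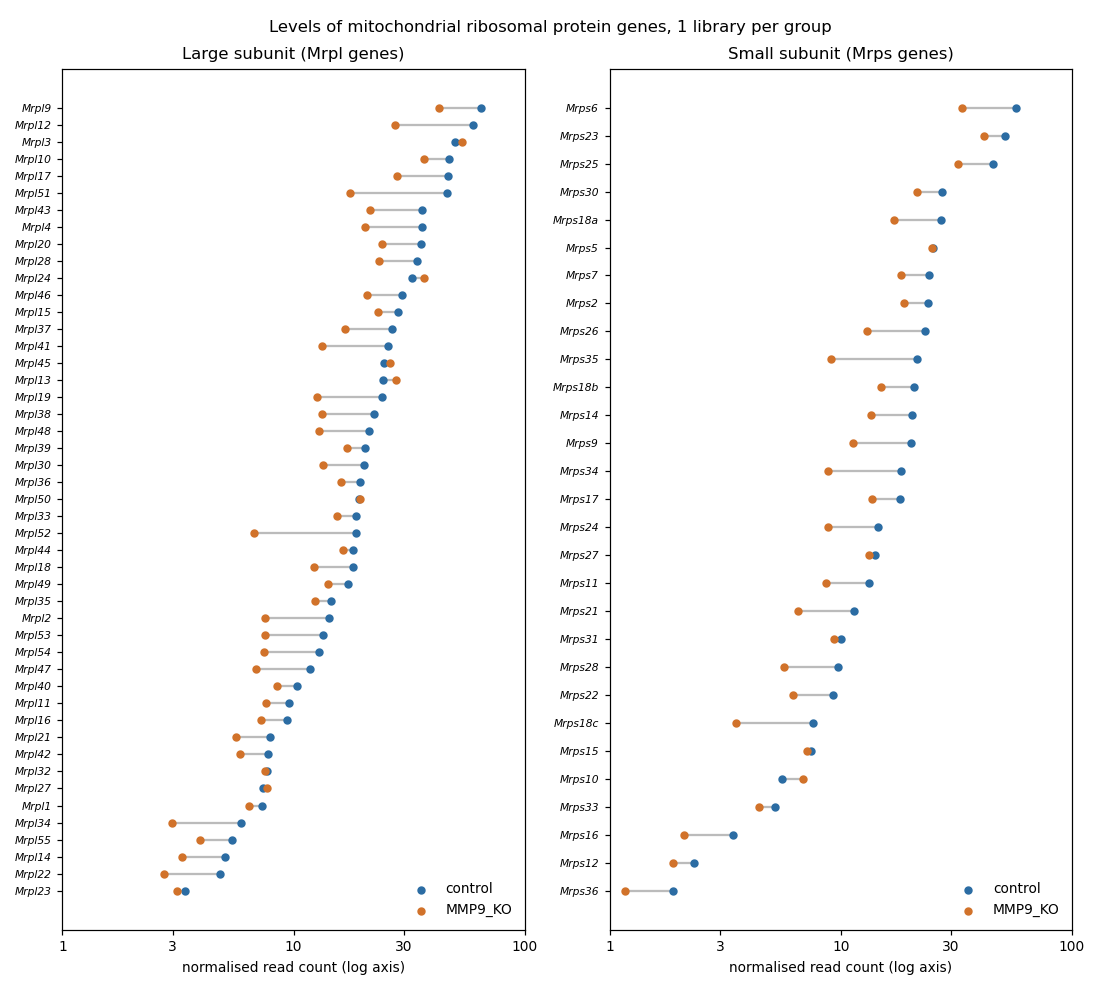
Normalised read count (log axis) of each mitochondrial ribosomal protein gene in the control (blue) and MMP9_KO (orange) library, with large subunit genes on the left and small subunit genes on the right, ordered by control level. The orange point lies to the left of the blue point for 41 of 47 large subunit genes and 28 of 29 small subunit genes.

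The large and the small subunit genes stood at nearly the same ratio. The large subunit had a median log2 ratio of -0.48 (SD 0.36 among 47 genes) and the small subunit -0.49 (SD 0.32 among 29 genes), a difference of 0.0067 that could not be tested. In the large subunit 41 of 47 were below 0 and 17 (36.2%) were lower by at least 1.5-fold. In the small subunit it was 28 of 29 and 10 (34.5%), beside 23.2% of all compared genes past 1.5-fold. The large subunit held 65.9% of the reads of all 76 genes in the control (65.6 to 66.3) and 66.4% in the knockout (66.0 to 66.8), and these intervals overlapped. A few names do not match the place of the protein. Mrps30 (27.5 in the control and 21.3 in the knockout) and Mrps18a (27.0 and 16.9) encode proteins that sit in the large subunit of the mammalian mitoribosome. Mrps36 (1.89 and 1.16) encodes a protein now known as a component of the 2-oxoglutarate dehydrogenase complex. With these genes placed by structure the difference between the subunits was 0.014.

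**Figure D2:**
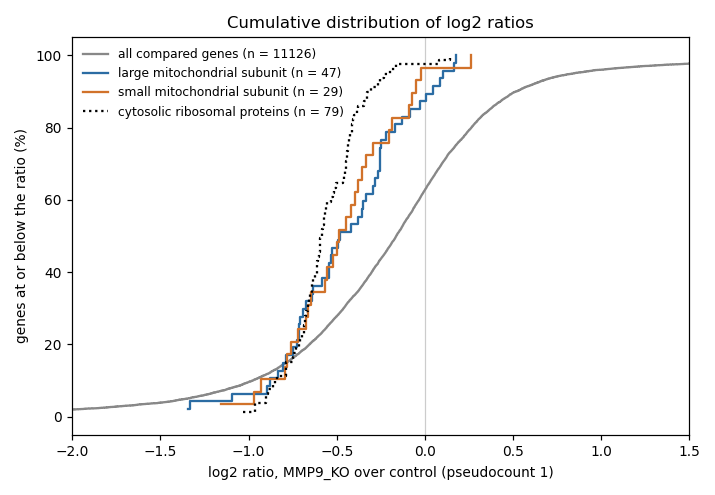
Cumulative share of genes (%) at or below each log2 ratio of MMP9_KO over control, for large subunit genes (blue, n = 47), small subunit genes (orange, n = 29), cytosolic ribosomal protein genes (dotted, n = 79) and all 11126 compared genes (grey), with the axis limited to ratios from -2 to 1.5. The large and small subunit curves run together, to the left of the grey curve over most of its range, and both are steeper than it.

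Sorted by descent, the genes with a bacterial counterpart and those particular to mitochondrial ribosomes overlapped widely. The 46 with a bacterial counterpart had a median of -0.46, with 14 (30.4%) lower by at least 1.5-fold. The 29 mitochondria-specific genes had a median of -0.49, with 13 (44.8%), beside 23.2% of all compared genes. In the large subunit the 19 mitochondria-specific proteins had a median of -0.64, with 10 (52.6%) lower by at least 1.5-fold. The 30 with a bacterial counterpart had -0.40, with 8 (26.7%). In the small subunit the 10 mitochondria-specific proteins had a median of -0.47 and the 16 bacterial counterparts -0.54. After centring on GC content and length, the order of these classes stayed in the large subunit and turned around in the small subunit. The medians were then -0.21 and -0.16 in the large subunit and -0.23 and -0.16 in the small subunit, mitochondria-specific proteins first. None of these differences could be tested.

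The 4 genes lower by at least 2-fold were Mrpl51, Mrpl52, Mrpl12 and Mrps35. Mrpl51, a mitochondria-specific large subunit gene at chr6:125191801-125196269 (GRCm38, plus strand, protein-coding), had 46.0 in the control and 17.5 in the knockout. That is 2.63-fold lower (2.41 to 2.87), and the log2 ratio of -1.34 was the lowest of all 76 genes. Mrpl52 at chr14:54426909-54429756 (plus strand), whose protein lies in the central protuberance, had 18.6 and 6.77, 2.74-fold lower (2.39 to 3.15). Mrpl12 at chr11:120484613-120489065 (plus strand), the counterpart of bacterial L7/L12, had 59.5 and 27.3, 2.17-fold lower (2.03 to 2.34). By reads it came next after Mrpl9 in the control, whereas in the knockout Mrpl3, Mrpl10 and Mrps23, among others, stood above it. Mrps35 at chr6:147042764-147073991 (plus strand), a mitochondria-specific small subunit gene, had 21.4 and 9.03, 2.37-fold lower (2.10 to 2.68). Without the pseudocount, Mrps18c (7.60 and 3.52, 2.16-fold) and Mrps34 (18.3 and 8.84, 2.07-fold) were also past 2-fold. Mrps34, for which recessive variants cause a human mitochondrial disease, shares 1309 exonic bases with Mapk8ip3 on the opposite strand and 763 with Nme3 on its own strand. Whether reads were counted by strand is unknown, so reads in shared exons cannot be assigned to 1 gene.

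**Figure D3:**
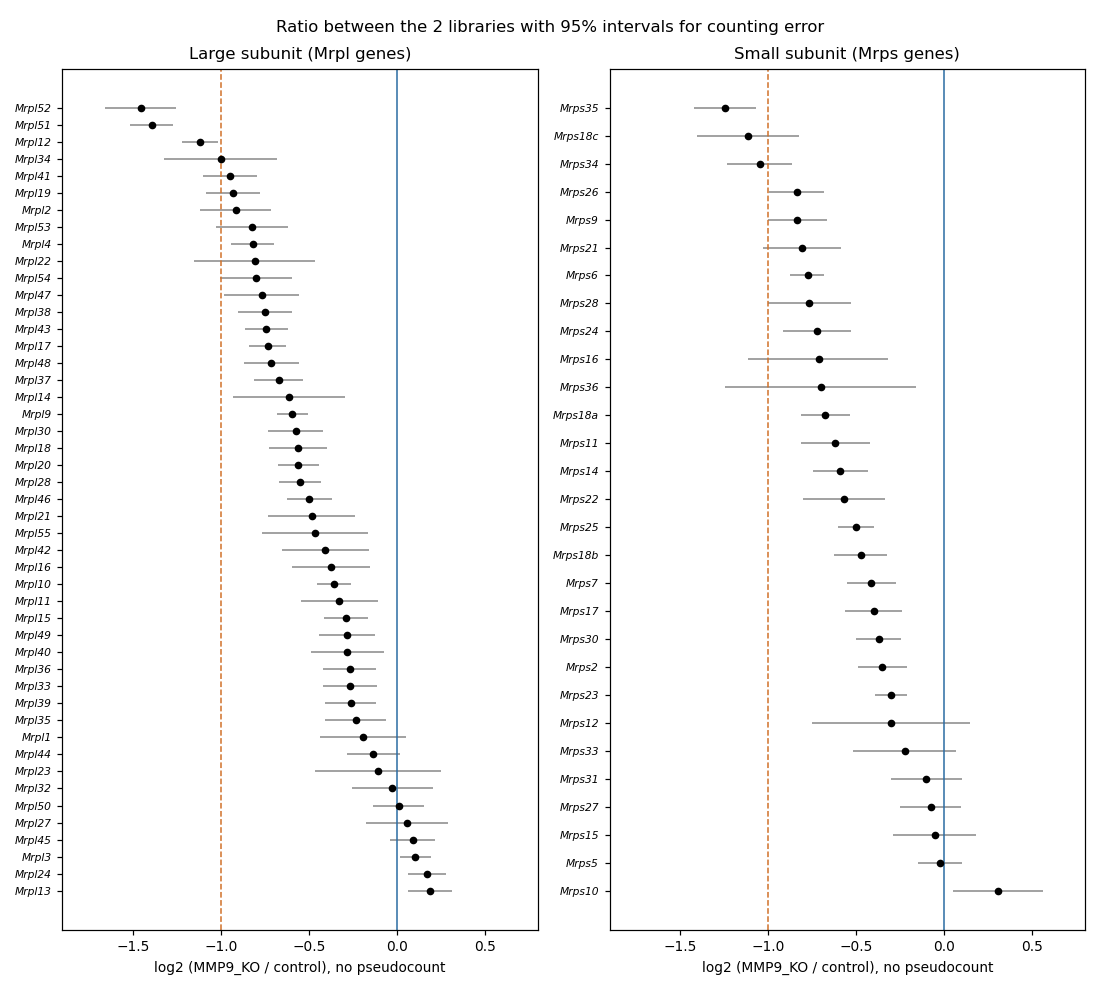
Log2 ratio of MMP9_KO over control without a pseudocount for each gene (black points) with its 95% interval from the read numbers (grey bars), large subunit genes on the left and small subunit genes on the right. The blue line marks equal levels and the dashed line a 2-fold lower level, and 4 genes (Mrpl3, Mrpl13, Mrpl24 and Mrps10) have intervals wholly above equal levels.

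The 7 genes that stood higher in the knockout library did so by small amounts. Mrps10, the counterpart of a bacterial protein in the head of the small subunit, had the highest ratio, with a control level of 5.54 and a knockout level of 6.84. That is 1.23-fold higher (1.03 to 1.48). It was the sole small subunit gene above 0. Mrpl13, whose bacterial counterpart joins early in assembly of the large subunit, had 24.3 and 27.7, 1.14-fold higher (1.04 to 1.24). Its annotated exons share 330 bases with Mtbp on the opposite strand, and Mtbp stood at 9.74 and 26.4. Mrpl24, near the exit tunnel, had 32.5 and 36.6, 1.13-fold higher (1.05 to 1.21), and Mrpl3, which reaches towards the peptidyl transferase centre, had 49.9 and 53.7, 1.07-fold higher (1.01 to 1.14). The intervals of the remaining 3 held equal levels. They were Mrpl45 at 24.7 and 26.2, Mrpl27 at 7.40 and 7.70, and Mrpl50 at 19.2 and 19.3, the last outside the naming rule and named after its values were seen. The small subunit genes closest to equal levels were Mrps5 at 25.1 and 24.7, Mrps15 at 7.43 and 7.15, Mrps27 at 14.0 and 13.3, and Mrps31 at 10.1 and 9.38. Their intervals too held equal levels.

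The L7/L12 stalk is the flexible arm of the large subunit that recruits translation factors. Its 3 genes were all below 0, but unequally. Beside Mrpl12 with its log2 ratio of -1.09, Mrpl10, which anchors the L7/L12 copies, had a control level of 47.1 and a knockout level of 36.7 (1.28-fold lower, 1.20 to 1.37). Mrpl11, at the base of the stalk, had 9.52 and 7.58 (1.26-fold lower, 1.08 to 1.46). The intervals of Mrpl10 and Mrpl11 lay wholly under that of Mrpl12. Centred on GC content and length, the median of the 3 went from -0.35 to -0.11. Per kilobase of the longest transcript, the level of Mrpl12 was above that of Mrpl10 in the control (45.2 and 27.6) and close to it in the knockout (20.8 and 21.5).

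The central protuberance crowns the large subunit and contacts the small subunit and the tRNAs. Its 8 genes had a median of -0.50, with 7 of them below 0. On the lower side 3 (37.5%) were past 1.5-fold, beside 23.2% of all compared genes. Mrpl52 led, followed by Mrpl38 with 22.3 and 13.3 (1.68-fold lower) and Mrpl48 with 21.2 and 12.9 (1.64-fold lower). Mrpl18, which in bacteria binds the 5S rRNA, had 18.0 and 12.2 (1.48-fold lower), and Mrpl46 had 29.5 and 20.9 (1.41-fold lower). Mrpl55 had 5.44 and 3.94, and Mrpl40 had 10.3 and 8.50. Mrpl27, whose bacterial counterpart reaches the peptidyl transferase centre, was the sole one above 0, at a log2 ratio of 0.05. Within this 1 structural region the ratios thus ran over almost the whole range of the 76 genes. Centred on GC content the median of the 8 was -0.17, and centred on both GC content and length it was -0.04 with 5 below 0. Mrpl38 then stood at -0.04 and Mrpl52 at -0.91.

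The exit tunnel guides the new chain towards the inner membrane. Its 6 genes split into 2 sets, with 3 lower by at least 1.5-fold and 3 near equal levels. Lower were Mrpl17 with 46.6 and 28.0 (1.66-fold), Mrpl22, which lines the tunnel, with 4.82 and 2.76 (1.75-fold), and Mrpl47 with 11.8 and 6.91 (1.70-fold). Near equal levels were Mrpl23 with 3.38 and 3.14 (1.08-fold lower, 0.842 to 1.38), and Mrpl24 and Mrpl45 above. Mrpl45 anchors the ribosome to the inner membrane. Mrpl47 shares 616 exonic bases with Ndufb5 (61.97 and 20.98) and 452 with Actl6a (31.2 and 17.6). Mrpl24 shares 594 with Rrnad1 (25.3 and 22.3). These overlaps are on the opposite strand, and reads in them cannot be assigned. Mrpl17 and Mrpl22 on the lower side, and Mrpl23 and Mrpl45 near equal levels, share no exonic bases with another gene of the table. How far the split rests on the overlaps was not tested. The median of the 6 was -0.36, and -0.03 with 3 below 0 when centred on GC content and length.

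In the small subunit, Mrps12, Mrps5 and Mrps24 line the mRNA path and the decoding site. Mrps24 had a control level of 14.5 and a knockout level of 8.81 (1.65-fold lower, 1.45 to 1.88). It shares 226 exonic bases on its own strand with Urgcp (18.9 and 9.64), and reads in them cannot be assigned. Mrps12, whose bacterial counterpart sets the accuracy of decoding, had 2.31 and 1.88 (1.23-fold lower, 0.902 to 1.68), and Mrps5 is given above. Of these 3 only Mrps24 had an interval that left out equal levels, and centred on GC content and length it stood at -0.14, the sole one of the 3 below 0. The other small subunit genes with low ratios were Mrps26 with 23.2 and 13.0 (1.79-fold lower) and Mrps9 with 20.2 and 11.3 (1.78-fold lower). In the large subunit they were Mrpl41 with 25.5 and 13.2 (1.93-fold lower) and Mrpl19 with 24.2 and 12.7 (1.91-fold lower). The genes with the most reads in the control were Mrpl9 in the large subunit, with 64.5 and 42.7 (1.51-fold lower), and Mrps6 in the small one, with 57.1 and 33.3 (1.71-fold lower). Mrps23 had 51.1 and 41.5 (1.23-fold lower) and Mrps25 45.4 and 32.2 (1.41-fold lower). Mrps25 shares 4590 exonic bases with Nr2c2 (52.5 and 46.7), and Mrpl19 shares 1962 with Gcfc2 (5.12 and 7.60). Both overlaps are on the opposite strand, and reads in them cannot be assigned.

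Variants in several of these genes are known as causes of inherited mitochondrial disease in humans, often with heart or brain involvement, and 12 of them were listed here without claim to be complete. Their median was -0.49, and -0.25 when centred on GC content and length. Of the 12, 11 were below 0, 3 were lower by at least 1.5-fold and Mrpl12 by at least 2-fold. Mrpl3 was the one of these 12 above 0.

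Although the proteins occur once per ribosome, apart from the L7/L12 copies, the mRNAs differed widely in level. Divided by the length of the longest transcript, the control levels ran from 0.910 per kilobase for Mrpl23 to 51.2 for Mrps6, with a median of 9.17. The longest transcript, 3715 bases for Mrpl23 and 1115 for Mrps6, need not be the one expressed. How far the spread and the order rest on this length was not tested. In the knockout they ran from 0.813 for Mrps16, outside the naming rule, to 29.9 for Mrps6, with a median of 6.32. The large subunit median was 9.78 and 7.41 per kilobase and the small subunit median 7.48 and 5.30. Mrps6, Mrpl12, Mrpl20 and Mrpl9 led in the control with 51.2, 45.2, 43.9 and 38.9 per kilobase, of which Mrpl20 was named after its values were seen. In the knockout Mrps6 and Mrpl20 (29.8) still led, and Mrpl12 stood at 20.8. The levels per kilobase of the 76 genes in the 2 libraries had a Pearson correlation of 0.96 on the log2 scale and a Spearman correlation of 0.95, a description across genes that share libraries and lengths. Annotated exons of Mrps6 share 159 bases with Slc5a3 on the same strand, which stood at 205 and 88.3. In all, 25 of the 76 genes share exonic bases with another gene of the table. The other 51 had a median log2 ratio of -0.38, with 47 below 0 and 18 (35.3%) lower by at least 1.5-fold.

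Across all compared genes the ratio moved with the GC content of the transcript, and this bears on the size of the difference. Divided by GC content into 5 bins of equal size, all compared genes had a median log2 ratio of 0.06 in the lowest bin and -0.44 in the highest. By the longest transcript of each gene, the 76 genes had a median GC content of 49.8%, close to the 49.5% of all compared genes. These transcripts were shorter, with a median of 1806.5 bases against 3272.5. Their medians from the lowest to the highest bin were -0.31 (12 genes), -0.50 (18), -0.34 (13), -0.46 (20) and -0.71 (13). Each was below the median of all compared genes in the same bin. After centring on genes of similar GC content the median of the 76 was -0.30 with 62 below 0. After centring on both GC content and length it was -0.18 with 54 below 0. The large subunit then stood at -0.16 and the small subunit at -0.21. Mrpl51 (-1.35) and Mrps35 (-1.19), whose longest annotated transcripts are long (3427 and 4607 bases) and low in GC, kept their values under this centring. The longest transcript need not be the one expressed, so the centred value of a single gene depends on this choice. Mrpl52 went to -0.91 and Mrpl12 to -0.60. Across the large subunit genes the log2 ratio had a Spearman correlation of -0.38 with GC content, and across the small subunit genes -0.02.

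**Figure D4:**
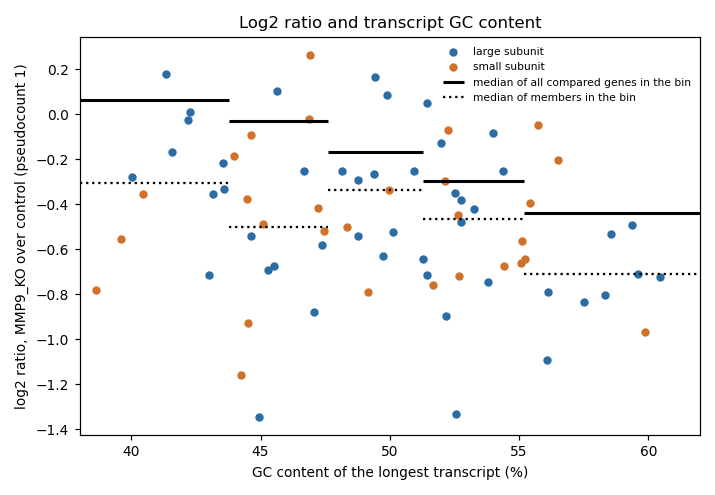
Log2 ratio of MMP9_KO over control against the GC content of the longest transcript (%) for large (blue) and small (orange) subunit genes. Solid black lines give the median of all compared genes in each of 5 bins of GC content and dotted lines the median of the mitochondrial ribosomal protein genes in it, which lies lower in every bin.

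Start regions of these genes are shown because genes for mitochondrial proteins are known for short, GC-rich promoters without a TATA box, in which sites of ETS factors such as GABPA, of NRF1 and of YY1 recur. RefSeq (GRCm38.p6) gave a promoter window, 250 bases before to 50 after the start, for 67 of the 76 genes. On either strand, CCGGAAG, the core of ETS sites, was found in 22 of the 67 (32.8%), beside 20.4% of the windows of compared genes and 9.14% of all 27025 windows. GCGCATGC, a form of the core of NRF1 sites, was found in 8 (11.9%), beside 6.09% and 2.80%. AAGATGG, the core of YY1 sites, was found in 13 (19.4%), beside 7.84% and 6.46%. At least 1 of the 3 was found in 34 of the 67 (50.7%), beside 30.8% and 17.0%. The median GC content of the 67 windows was 58%, beside 61% for compared genes and 52.7% for all, with a median of 21 CpG beside 21 and 7. TATAAA in the last 50 bases before the start was found in none of the 67, beside 1.17% and 2.88%. This count depends on the start used, since some of the windows overlap annotated exons. Mrpl16 holds TATAAA further upstream, within the last 100 bases. A match is a run of letters, not a measured site. Only these exact letters were searched, so sites with another base at a variable position were not counted. The 3 motifs do not share a core and were searched separately. The large subunit had ETS matches in 12 of 41 windows, NRF1 in 7 and YY1 in 7, and the small subunit in 10, 1 and 6 of 26.

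The windows below give the 100 bases before the start, 5′ to 3′ on the gene's strand, with motif matches in capitals, none of them overlapping an annotated exon. Mrpl52 is shown as a gene past 2-fold, at chr14:54426809-54426908 (plus strand), with a YY1 match beginning 91 bases before the start and an ETS match on the other strand at 47. Mrpl43, at chr19:45006443-45006542 (minus strand), has ETS matches at 56 and 12 bases before the start. Mrps22, at chr9:98601680-98601779 (minus strand), has an ETS match at 11. Mrpl45, at chr11:97315616-97315715 (plus strand), is a gene near equal levels with no match to the letters searched. Its window does hold gcgcacgc, which has a c where the NRF1 letters searched have a T, so it is not shown as free of NRF1-like letters. Mrpl43 and Mrps22 were chosen for their matches after the values were seen.
Mrpl52: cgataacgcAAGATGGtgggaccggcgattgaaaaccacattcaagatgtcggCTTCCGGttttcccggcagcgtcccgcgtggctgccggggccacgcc
Mrpl43: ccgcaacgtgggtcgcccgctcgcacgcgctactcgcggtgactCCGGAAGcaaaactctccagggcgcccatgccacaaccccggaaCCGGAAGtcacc
Mrps22: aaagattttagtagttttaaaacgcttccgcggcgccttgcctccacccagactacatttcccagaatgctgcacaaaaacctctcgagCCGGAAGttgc
Mrpl45: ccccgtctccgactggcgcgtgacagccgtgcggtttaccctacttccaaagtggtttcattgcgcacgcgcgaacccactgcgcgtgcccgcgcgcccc

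Ratios overlapped widely by motif. The 22 genes with an ETS match had a median log2 ratio of -0.58 and the 45 without -0.38, with ranges of -1.34 to 0.10 and -1.09 to 0.26. For NRF1 the medians were -0.40 with and -0.42 without a match, and for YY1 -0.35 and -0.46. Mrpl43, with 2 ETS matches in the printed bases, had a control level of 36.0 and a knockout level of 21.5 (1.67-fold lower). Mrps22 had 9.22 and 6.22 (1.48-fold lower).

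Other nuclear genes of mitochondrial translation were read beside the 76 as context. The 7 mitoribosomal proteins with other names were all below 0. Their median was -0.36 and 1 (14.3%) was lower by at least 1.5-fold, beside 23.2% of all compared genes. Ptcd3, an RNA-binding small subunit protein, had 56.7 in the control and 54.2 in the knockout, and Dap3, a GTP-binding one, 31.2 and 27.8. The 14 translation factors had a median of -0.46, with 13 below 0 and 5 (35.7%) past 1.5-fold on the lower side. Gfm2, which recycles ribosomes, had 117 and 57.3, 2.03-fold lower (1.94 to 2.14), and Lrpprc, which stabilises mitochondrial mRNAs, had 131 and 96.1. The 18 mitochondrial tRNA synthetases had a median of -0.30 with 16 below 0 and 3 (16.7%) lower by at least 1.5-fold. The most abundant, Lars2, had 592 and 576.

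Assembly factors and genes of mitochondrial DNA stood near or above the median of all compared genes. The 15 assembly factors compared had a median of -0.13. Of them 11 were below 0 and 2 (13.3%) were lower by at least 1.5-fold, beside 23.2% of all compared genes. Dhx30, an RNA helicase of assembly, had 48.3 and 54.1. The 8 genes of mitochondrial DNA replication and transcription had a median of 0.16, with 3 below 0. Polg, the DNA polymerase, had 49.6 and 40.4, and Peo1, the helicase Twinkle, had 32.7 and 35.9. Peo1 shares 507 exonic bases with Mrpl43 on the opposite strand, and the pair had ratios of opposite sign. The 21 protein import genes had a median of -0.34 with 16 below 0. Tomm6 (44.0 and 18.1, 2.43-fold lower) and Timm13 (58.0 and 27.9, 2.08-fold lower) were past 2-fold. They made up 9.52% of the 21, beside 9.58% of all compared genes. The 79 cytosolic ribosomal protein genes compared had a median of -0.59, with 77 below 0 and 40 (50.6%) lower by at least 1.5-fold, and a smaller SD of 0.22. Centred on GC content and length it was -0.22, near the -0.18 of the mitochondrial genes. Centred in the same way, the medians were -0.06 for the mitoribosomal proteins with other names, -0.29 for translation factors, -0.18 for tRNA synthetases, -0.01 for assembly factors, 0.18 for the mitochondrial DNA genes and -0.15 for import. None of these differences between lists could be tested with 1 library per group. The 13 mRNAs encoded by mitochondrial DNA are listed at 0 in both libraries, so the mRNAs that the mitochondrial ribosome translates could not be set beside its protein genes.

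**Figure D5:**
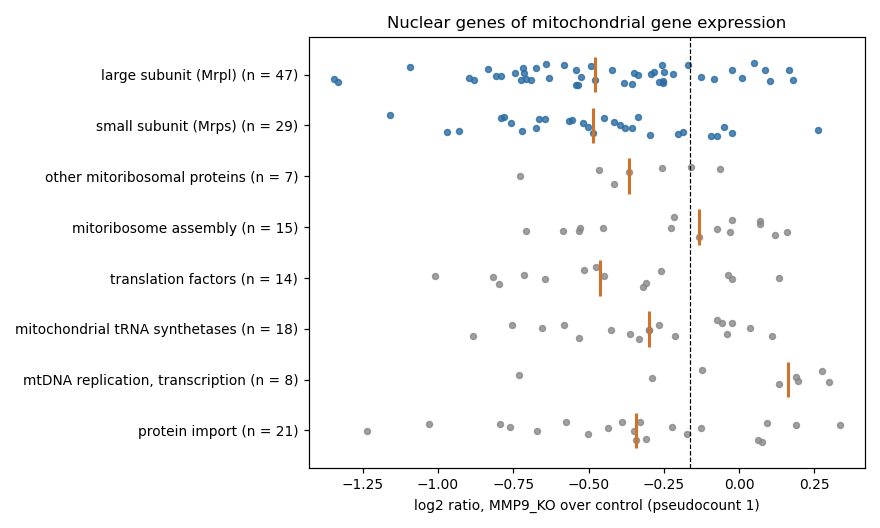
Log2 ratio of MMP9_KO over control for each gene of the mitochondrial ribosomal protein lists (blue) and of other nuclear lists of mitochondrial gene expression and import (grey), with list medians as orange bars and the median of all compared genes, -0.16, as a dashed line. The large and small subunit medians of -0.48 and -0.49 lie to the left of the dashed line, and the median of mitochondrial DNA replication and transcription genes, 0.16, lies to its right.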

How the data were processed

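The submitters' processing notes name TopHat and the mouse build mm9, without a version. Nothing is stated on counting, gene annotation, strand or normalisation, none of which is given in the sources here. The authors deposited log2 values for 26037 genes in 1 control and 1 MMP9_KO column. The table is titled as RPKM, but converted values were whole multiples of 1 step per library (0.0248 and 0.0238) for short, middle and long transcripts alike, within 0.05 of a read. They were therefore treated as scaled read counts. Genes without reads, deposited at 0.9 of the step, were set to 0. A count of 0 allows levels up to 0.0745 and 0.0713 (3 reads).

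Genes with a mean of at least 1 were compared by the log2 ratio with a pseudocount of 1. Folds are without pseudocount, with exact 95% intervals from the reads. No p-value was computed. Length and GC content came from the longest transcript of any type of each gene in GENCODE M21 (GRCm38, another build than mm9). Positions are those of the gene. Genes were matched for 25029 by identifier or, for 1422, symbol, and for 98.4% of compared genes. Members and lists were chosen with earlier results of these data known. In each subunit the named genes are the 5 lowest and 5 highest ratios and the 3 highest control levels, with all genes of the stalk, central protuberance, exit tunnel and mRNA path lists. From the other lists they are those past 2-fold and the 2 most abundant. Alternatives were pseudocounts of 0.1 and 5, no filter or a mean of at least 5, 3 scalings of the knockout, centring by GC content, length or both, subunits by structure, and means. The calculation was tested on simulated data. Python 3.11.15, pandas 2.3.3, NumPy 2.4.6, SciPy 1.17.1 and matplotlib 3.10.9 were used.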

Additional observations from a re-analysis of the deposited data

How the results depend on the processing

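No paired analysis was possible because each group had 1 library, which also left no replicate to omit. The number of genes lower by at least 2-fold was 4 as reported (9.58% of all compared genes). It was 2 with a pseudocount of 5 (5.42% of all). With the knockout scaled to a median ratio of 0 (7.19%), by a trimmed mean (7.06%) or to equal sums (6.15%) it was also 2. So it was with ratios centred by length (6.93%) or by GC content and length (6.31%). It was 6 (7.89%) with a pseudocount of 0.1 (11.9% of all) and 3 (3.95%) centred by GC content (6.35%). In all of these the members' share was below that of all genes. Without the filter the 4 were 5.26%, beside 4.20% of all 26037 genes. The number lower by at least 1.5-fold was 27 as reported (23.2% of all compared genes) and 33 with a pseudocount of 0.1 (26.3% of all). It was 14 with a pseudocount of 5 (15.4% of all), 15 with a median of 0 (16.5%), 13 with the trimmed mean (16.1%), 9 with equal sums (13.4%), 13 centred by GC content (14.5%), 10 by length (15.6%) and 12 by both (14.0%). With equal sums and centred by length, the members' shares of 11.8% and 13.2% were below those of all genes. The large subunit median of -0.48 became -0.31 with a median of 0, -0.30 with the trimmed mean, -0.21 with equal sums, -0.23 centred by GC content, -0.13 by length and -0.16 by both. The small subunit median of -0.49 became -0.31 with a median of 0 and with the trimmed mean, and -0.25 with equal sums. It was -0.34 centred by GC content, -0.23 by length and -0.21 by both. Both medians stayed below 0 under every alternative run. The number of genes below 0 went from 69 to 62 with a median of 0, the trimmed mean or centring by GC content (50%, 49.2% and 50% of all genes). It went to 54 with equal sums (43.3% of all) or centring by length (50%) or both (49.8%). The large minus small difference was 0.0043 to 0.11 under all alternatives. Of the 38 named members 9 changed sign under a scaling or centring, and none of those past 2-fold did. Depth limits the genes with few reads, such as Mrps36 (76 and 49) and Mrps12 (93 and 79).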

Other observations

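Some mitochondrial ribosomal protein genes start back to back with another gene. In GENCODE M21, 17 of the 76 (22.4%) have a protein-coding gene on the opposite strand that starts within 1000 bases upstream, beside 1184 of 10182 (11.6%) compared protein-coding genes. Mrpl46 and Mrps11 on chromosome 7, which are not among the 17, lie on opposite strands and overlap at their starts, and their annotated exons share 173 bases. Mrpl46 had 29.5 in the control and 20.9 in the knockout, and Mrps11 had 13.2 and 8.60.

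Of the 16 pairs in which both genes were compared, the log2 ratios had the same sign in 9 and opposite signs in 7. Pnpla7, 935 bases from Mrpl41, had 68.8 and 32.9 against 25.5 and 13.2 for Mrpl41, and Ptcd2, 81 bases from Mrps27, had 19.3 and 18.5 against 14.0 and 13.3. Ncapd2, a condensin subunit gene that starts 100 bases from Mrpl51, had 69.3 and 71.1, whereas Mrpl51 had 46.0 and 17.5. Mitd1, 66 bases from Mrpl30, had 8.35 and 25.8 against 20.1 and 13.5 for Mrpl30. Klc4, a kinesin light chain gene 207 bases from Mrpl2, had 45.8 and 4.09 against 14.2 and 7.53 for Mrpl2. Fau, 59 bases from Mrpl49, encodes a cytosolic ribosomal protein and had 42.3 and 20.2 against 17.2 and 14.2 for Mrpl49. These pairs were picked after their values were seen.

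One processed pseudogene of the family has its own entry in the table. Mrps36-ps1 had 2.73 and 1.43, above Mrps36 with 1.89 and 1.16. How the counting divided reads between such near-identical copies is unknown, so the values of Mrps36 are uncertain.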
